A study of Mus musculus with 6 samples.

Results

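The miR-30 microRNAs (miRNAs) were examined in 1 small RNA library from mouse liver. Members were taken by name: all mouse mature entries of miR-30a to miR-30f, both arms and all gene copies, in a deposited table of read counts. This gave 12 of the 1963 distinct mouse mature sequences, namely 5 from the 5p arm, 6 from the 3p arm and miR-30f, whose name gives no arm. The library came from a mouse injected with AAV9, an adeno-associated virus used to carry genes into mouse tissues, bearing Cre recombinase under the Tnnt2 promoter (AAV-Tnnt2-Cre-miR122). Tnnt2 encodes cardiac troponin T, and its promoter is used to drive expression in heart muscle cells. The element named miR122 is not described further in the labels, and neither strain, age nor time after injection is stated there. The study asked what the vector with this element does to liver miRNAs. The labels name 6 libraries, 3 of this group and 3 of mice given AAV-Tnnt2-Cre. Counts of replicate 2 of the Cre-miR122 group were used, and those of the remaining 5 libraries were not analysed here, so no difference between groups was tested and no value has a replicate.

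A miRNA gene is transcribed into an RNA that folds into a hairpin. Drosha and Dicer cut a short duplex out of it, of which usually 1 strand, from the 5p or the 3p arm, is kept by an Argonaute protein while the other is degraded. The kept strand pairs with target mRNAs mainly through its seed, bases 2 to 8 from the 5′ end, so a shifted 5′ end changes the targets while a shifted 3′ end leaves the seed as it is. The miR-30 family is found across vertebrates and is abundant in epithelial and muscle tissues, liver and heart included. Its known targets include the mRNA of connective tissue growth factor, a driver of fibrosis.

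The mature sequences show what the members share and where they differ, and they define the arms counted below. RefSeq (GRCm38.p6) sequences matched 8 of the 12 members by name, and the seed is in capitals.
mmu-miR-30a-5p: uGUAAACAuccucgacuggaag
mmu-miR-30c-5p: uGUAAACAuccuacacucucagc
mmu-miR-30e-5p: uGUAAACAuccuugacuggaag
mmu-miR-30a-3p: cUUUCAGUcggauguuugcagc
mmu-miR-30e-3p: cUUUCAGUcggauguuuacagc
mmu-miR-30c-1-3p: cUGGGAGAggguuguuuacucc
mmu-miR-30c-2-3p: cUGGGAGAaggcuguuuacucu
mmu-miR-30f: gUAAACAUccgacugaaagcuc
The prefix mmu- marks mouse entries. The other members are miR-30b-5p, miR-30b-3p, miR-30d-5p and miR-30d-3p. All 5 of the 5p members start with U and carry the seed GUAAACA, and all 6 of the 3p members start with C. The 3p arms fall into 3 seed groups: UUUCAGU in miR-30a-3p, miR-30d-3p and miR-30e-3p, UGGGAGA in both miR-30c 3p arms, and UGGGAUG in miR-30b-3p. miR-30a-5p and miR-30e-5p differ by 1 base, C13U, counted from 1 at the 5′ end. Their 3p arms also differ by 1 base, G18A. The 3p arms of the miR-30c copies differ at 3 bases (A9G, C12U and U22C from miR-30c-2-3p to miR-30c-1-3p), so these reads can be told apart by gene. The 5p sequence of the miR-30c copies is identical, and its reads cannot.

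The family lies in 3 pairs of genes on mm10 (GRCm38). Mir30a (chromosome 1, plus strand, 23272269 to 23272339) lies in no other annotated gene and is 19.4 kb from Mir30c-2 (chromosome 1, plus strand, 23291701 to 23291784), which overlaps an exon of Gm27028, a lincRNA gene. Mir30e (chromosome 4, minus strand, 120772606 to 120772697) and Mir30c-1 (chromosome 4, minus strand, 120769534 to 120769622) are 2.98 kb apart in introns of Nfyc, which encodes a subunit of the transcription factor NF-Y. Mir30b (chromosome 15, minus strand, 68337415 to 68337510) and Mir30d (chromosome 15, minus strand, 68341208 to 68341289) are 3.70 kb apart, in exons of the noncoding genes Gm26621 and Gm20732, and the Mir30d hairpin also overlaps an exon of Gm37296. Mir30f is annotated on the plus strand at the place of Mir30e, so the mature miR-30f (120772621 to 120772642) lies opposite the Mir30e hairpin. The hairpins of Mir30a and Mir30e show the arms in place, with the mature sequences in capitals and the 5p arm first.
Mir30a: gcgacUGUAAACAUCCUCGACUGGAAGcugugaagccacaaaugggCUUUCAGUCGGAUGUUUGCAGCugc
Mir30e: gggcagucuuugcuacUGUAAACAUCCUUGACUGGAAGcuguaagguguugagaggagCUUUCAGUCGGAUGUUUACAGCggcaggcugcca
In both, the bases just after the 5p entry are c and u, which the longer end forms below include.

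The table held 8163802 reads over distinct sequences of all species, of which 6661069 were on mouse entries. Identical sequences listed for several species had equal counts and were counted once. Entries of other species that contain, or lie within, a mouse entry record reads with other ends, and such an entry is called an end form. Of 31 end forms of the miR-30 members, 29 had reads, all 31 matched a mouse miR-30 hairpin exactly, and 0 nested with more than 1 member. Intervals in parentheses are exact 95% intervals (Clopper-Pearson for shares, binomial for ratios of reads). They cover counting error only, since PCR copies were not separated and 1 library was analysed. The liver label was set beside marker miRNAs. The 4 hepatocyte markers in the table held 62.6% of mouse reads, of which miR-148a-3p alone held 57.9% and the other 3, miR-122-5p, miR-192-5p and miR-194-5p, held 4.69%. Markers of striated muscle held 15.8%, or 1050317 reads, most of them on miR-1a-3p alone with 980271. miR-206-3p followed with 68854 reads. The mouse entries of the rest had 915 (miR-133a-3p), 251 (miR-499-5p), 20 (miR-133b-3p), 6 (miR-208b-3p) and 0 (miR-208a-3p). Stellate cell and fibroblast markers held 2.12%, endothelial 0.908%, red cell 0.0429%, cholangiocyte and epithelial 0.0265% and leukocyte 0.00341%. These marker shares count mouse entries only. With end forms miR-122-5p had 685639 reads against 236027, miR-451a 2635 against 305 and miR-200b-3p 5873 against 1425. Likewise miR-133a-3p had 6574 against 915, miR-194-5p 18990 against 4017 and miR-126a-3p 132245 against 59356. miR-148a-3p moved little, with 3887256 against 3856275, as did miR-1a-3p, with 1065891 against 980271. The order of the lists may thus depend on the counting. The part of these other cells in the miR-30 reads was not tested, and in a tissue sample fewer cells of a type and less RNA per cell cannot be told apart.

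The family was carried by its 5p arms, and miR-30a-5p and miR-30d-5p held most of it. Mouse entries of the family held 75881 reads, or 1.14% of mouse reads (1.13 to 1.15). With end forms the family held 232624 reads, 3.07 times as many, so that 67.4% of its reads were on entries of other species. The 5 members with the seed GUAAACA held 95.9% of these reads (95.8 to 96.0). miR-384-5p, the other mouse miRNA with this seed, had 0 reads, which allows up to 4.5e-05% of mouse reads.

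Among the 5p members, mmu-miR-30a-5p was highest by either count. Its mouse entry had 31156 reads, 0.468% of mouse reads (0.463 to 0.473), and the arm had 119722 with end forms, 51.5% of the family. mmu-miR-30d-5p had 14040 reads on its mouse entry and 70602 with end forms, 30.4% of the family. mmu-miR-30c-5p, the summed output of Mir30c-1 and Mir30c-2, had 22920 and 26882, or 11.6% of the family with end forms. It therefore stood above miR-30d-5p by mouse entries and below it by whole arms. mmu-miR-30e-5p moved most, from 358 reads on the mouse entry to 4157 with end forms, 11.6 times as many. Its rank among all mouse sequences changed from 104 to 50. mmu-miR-30b-5p had 1566 reads on the mouse entry and 1771 with end forms. By whole arms the order was miR-30a-5p, miR-30d-5p, miR-30c-5p, miR-30e-5p and miR-30b-5p, and the counting intervals of no 2 neighbours met.

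In each hairpin group the 3p arm had fewer reads than the 5p arm with end forms, but the highest 3p members exceeded the lowest 5p members. mmu-miR-30a-3p had 2326 reads on its mouse entry and 5116 with end forms, 2.20% of the family. mmu-miR-30e-3p followed with 1732 and 2322, and mmu-miR-30c-2-3p with 1556 and 1750. The remaining 3p arms were rare: mmu-miR-30b-3p had 136 reads and no end form in the table, mmu-miR-30d-3p had 49 reads or 93 with end forms, and mmu-miR-30c-1-3p had 42 or 73. With end forms, the intervals of miR-30d-3p (0.000936 to 0.00142% of arm reads) and miR-30c-1-3p (0.000713 to 0.00114%) overlapped, so their order was not resolved. mmu-miR-30f, which lies opposite Mir30e, had 0 reads and no end form in the table.

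**Figure D1:**
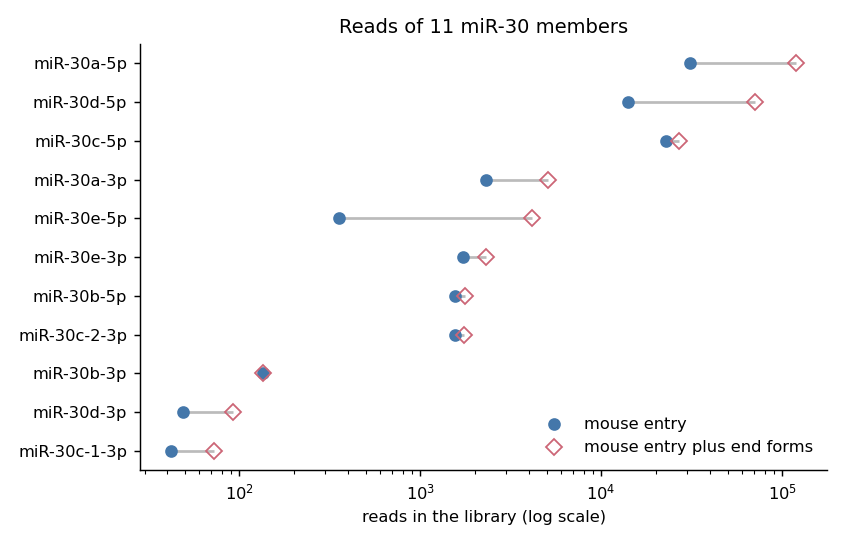
Reads of the 11 miR-30 members with a count, on a log axis, in the 1 library. Filled circles are the mouse entry and open diamonds the mouse entry plus end forms. The gap is widest for miR-30e-5p (358 against 4157 reads) and absent for miR-30b-3p (136 by both).

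The 5p members differed in where their 3′ ends lay. In every 5p member the hairpin reads AGCU at this place, and the mouse entries stop at different bases of it: after AG in miR-30a, miR-30d and miR-30e, after AGC in miR-30c and after AGCU in miR-30b. The longer forms of miR-30a-5p and miR-30e-5p are shown with the bases past the mouse entry in capitals, because they held most reads of these arms.
miR-30a-5p, 23 nt: uguaaacauccucgacuggaagC
miR-30a-5p, 24 nt: uguaaacauccucgacuggaagCU
miR-30e-5p, 23 nt: uguaaacauccuugacuggaagC
miR-30e-5p, 24 nt: uguaaacauccuugacuggaagCU
For miR-30a-5p the 22-nt mouse entry had 31156 reads, the 23-nt form 37417 and the 24-nt form 47817. The longest was thus the most frequent, at 39.9% of the arm (39.7 to 40.2). If a read counted for every entry it contains, the 22-nt entry could not have fewer reads than the 24-nt form. miR-30d-5p had 14040, 31436 and 24725 reads at the same 3 lengths. Here the 23-nt form led with 44.5% of the arm (44.2 to 44.9). If a read counted for every longer entry that contains it, this 24-nt form could not have fewer reads than the 23-nt form. miR-30e-5p had 358, 202 and 3497 reads, so that its 24-nt form held 84.1% of the arm (83.0 to 85.2). Per 23-nt read there were 1.28 reads of 24 nt for miR-30a-5p (1.26 to 1.30), against 0.787 in miR-30d-5p (0.773 to 0.800) and 17.3 in miR-30e-5p (15.02 to 20.05). These 3 intervals do not meet. miR-30a-5p and miR-30e-5p differ by a single base inside the mature sequence, and their hairpins also differ between the arms. The part of either difference was not tested. Recorded forms shorter than the mouse entry held 2.78% of the arm in miR-30a-5p, 2.12% in miR-30e-5p and 0.568% in miR-30d-5p. Each of these 3 arms has 1 such entry, of 20 nt in miR-30a-5p and 19 nt in miR-30d-5p and miR-30e-5p. Reads ending at other shorter lengths could not be seen.

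miR-30c-5p and miR-30b-5p had 1 dominant end each, as miR-30e-5p did. For miR-30c-5p the mouse entry, which ends after AGC, held 85.3% of the arm (84.8 to 85.7). The form ending after AGCU had 3599 reads or 13.4% (13.0 to 13.8), the form ending after AG had 205, and the form running 1 base past AGCU had 1. For miR-30b-5p the mouse entry, which ends after AGCU, had 1566 reads or 88.4% of the arm (86.8 to 89.9), and the form ending after AGC had 205, or 11.6% (10.1 to 13.2). Measured from the common AGCU end, the share of reads that ended there was 88.4% for miR-30b-5p, 84.1% for miR-30e-5p, 39.9% for miR-30a-5p, 35.02% for miR-30d-5p and 13.4% for miR-30c-5p. miR-30b-5p was thus highest and miR-30c-5p lowest, and the intervals of miR-30b-5p and miR-30e-5p (83.0 to 85.2) do not meet. miR-30b-5p has no form ending after AG and no longer form in the table. Ends that no entry records were not seen, and the share at a recorded end is then too high.

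**Figure D2:**
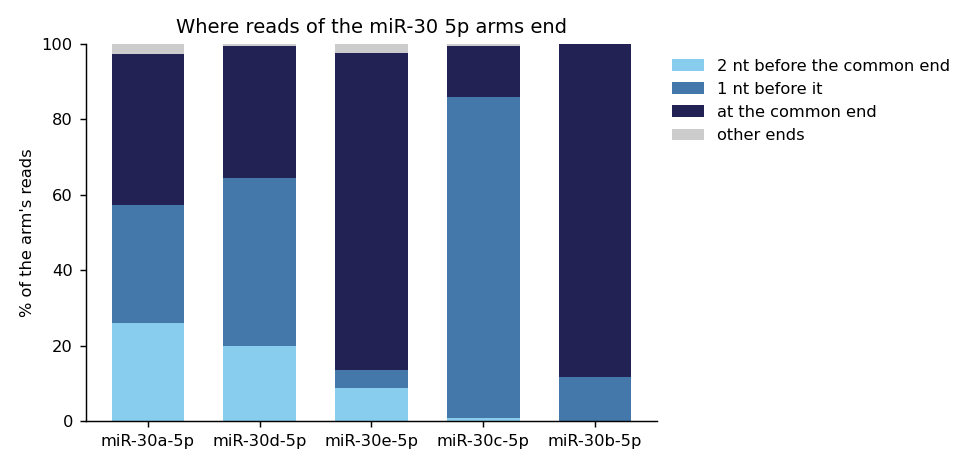
Share of each 5p arm's reads, in percent, by where the read ends relative to the common end of the 5 arms. Reads ending at the common end make up 88.4% of miR-30b-5p and 84.1% of miR-30e-5p but 13.4% of miR-30c-5p, in which 85.3% ended 1 nt before it.

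The mouse entry held 31.4% of the reads of the 5p arms together (31.2 to 31.6), from 8.61% (7.78 to 9.51) in miR-30e-5p to 88.4% in miR-30b-5p. Over 86 mouse arms with at least 1000 reads and an end form in the table, the mouse entry held under 50% of the reads in 44.2%, and another form had more reads than it in 36.0%. Of the 8 miR-30 arms among them, 4 were under 50% (miR-30a-5p, miR-30d-5p, miR-30e-5p and miR-30a-3p) and 3 had another form on top. The median share was 60.03% in the miR-30 arms and 65.9% in all arms. The miR-30 counts were thus near those over all arms.

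**Figure D3:**
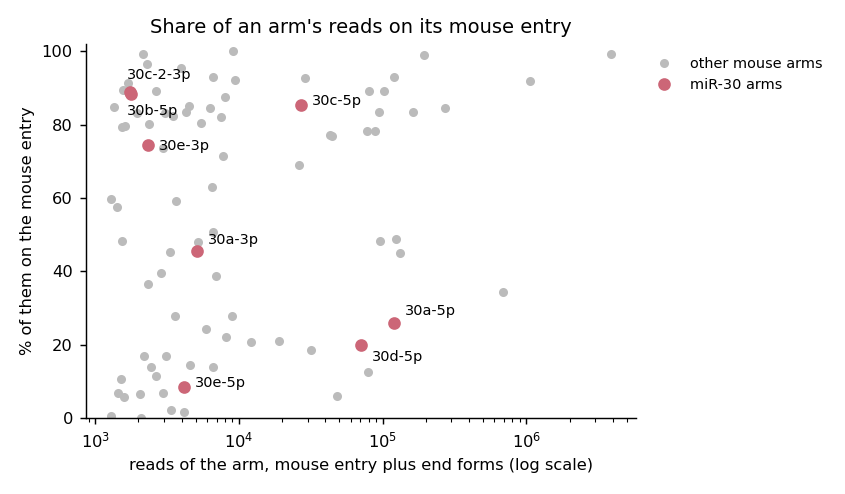
Share of an arm's reads on its mouse entry (percent) against the reads of the arm (log scale), 1 point per mouse arm with at least 1000 reads. The 8 miR-30 arms range from 8.61% for miR-30e-5p to 88.9% for miR-30c-2-3p, within the range of the other arms.

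On the 3p arms the 5′ end also varied. A read of miR-30a-3p that starts 1 base later has the seed UUCAGUC in place of UUUCAGU, shown here in capitals in the form with 1252 reads.
miR-30a-3p, 1 nt later: uUUCAGUCggauguuugcagc
This form held 24.5% of the reads of miR-30a-3p (23.3 to 25.7). The same shift held 9.26% of miR-30c-2-3p (162 reads, 7.94 to 10.7), 9.59% of miR-30c-1-3p (7 reads, 3.94 to 18.8), 5.38% of miR-30e-3p (125 reads, 4.50 to 6.38) and 3.23% of miR-30d-3p (3 reads, 0.670 to 9.14). The share in miR-30a-3p was above the other 4 intervals, including that of miR-30e-3p. miR-30a-3p and miR-30e-3p differ by 1 base near the 3′ end, and their hairpins also differ between the arms. Among mouse 3p arms, 10 had at least 1000 reads and an entry starting 1 base later. Of these, miR-30a-3p, miR-30c-2-3p and miR-30e-3p had the 3 highest shares. The median over all 10, those 3 included, was 2.75%. Arms without such an entry could not be ranked. On entries starting 1 base earlier there were 5 reads for miR-30e-3p and 0 for miR-30a-3p, whose form also ends 1 base later. The other 3p members have no entry with an earlier start, so such reads could not be seen. The table has 0 entries with another 5′ start for the 5p members, so shifts of their seed could not be seen.

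**Figure D4:**
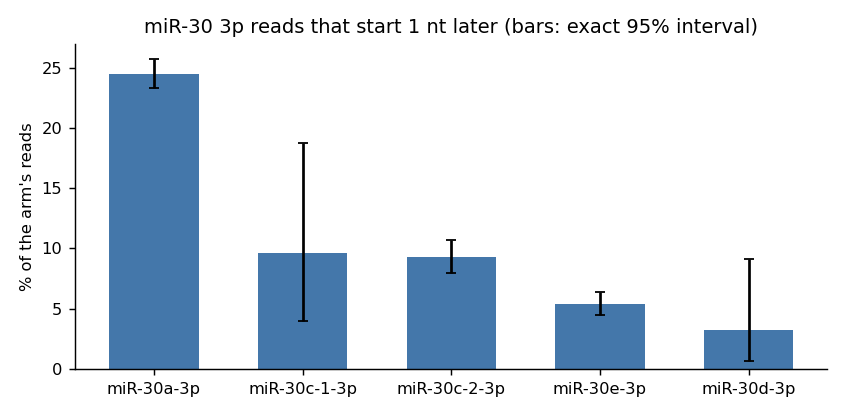
Share of each 3p arm's reads that start 1 nt after the mouse entry, in percent, with exact 95% counting intervals, for the 5 members with such an entry. miR-30a-3p stands at 24.5%, and the others lie between 3.23% and 9.59%.

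The 3′ ends of the 3p arms varied as well. For miR-30a-3p the form 1 nt shorter had 933 reads, or 18.2% of the arm, and the form 3 nt shorter had 605, or 11.8%, which left 45.5% on the mouse entry (44.1 to 46.8). For miR-30e-3p the form 1 nt shorter had 460 reads, or 19.8%, and the mouse entry held 74.6% (72.8 to 76.4). Past the 3′ end of the mouse entry, miR-30d-3p had 35 of its 93 reads on a form 1 nt longer. miR-30c-1-3p had 0 reads on such a form. So did miR-30a-3p, whose form also starts 1 nt earlier. For miR-30b-3p, miR-30c-2-3p and miR-30e-3p no entry runs past that end, so such reads could not be seen.

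The 5p arm exceeded the 3p arm in all 5 hairpin groups once end forms were counted, but by very different ratios. Mir30d had 70602 reads of 5p and 93 of 3p, or 759 to 1 (620 to 941), against 287 to 1 (217 to 387) by mouse entries. Mir30a had 119722 and 5116, or 23.4 to 1 (22.8 to 24.1), against 13.4 to 1 (12.8 to 14.0) by mouse entries. Mir30c-1 and Mir30c-2 together had 26882 and 1823, or 14.7 to 1 (14.1 to 15.5). Mir30b had 1771 and 136, or 13.0 to 1 (10.9 to 15.6), which overlaps the interval of Mir30c. By mouse entries Mir30c-1 and Mir30c-2 together stood at 14.3 to 1 (13.6 to 15.1) and Mir30b at 11.5 to 1 (9.66 to 13.8). Mir30e had 4157 and 2322, or 1.79 to 1 (1.70 to 1.88), the lowest. The same arm thus led in each group, at ratios from 1.79 to 759.

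In Mir30e the leading arm depended on the counting. By mouse entries 3p led, with 1732 reads against 358, or 4.84 reads of 3p per read of 5p (4.32 to 5.44). With end forms 5p led, because 3497 reads of 5p were on the 24-nt form. Among 72 mouse hairpins with both arms named and at least 1000 reads, 5p led with end forms in 61.1%, and the leading arm differed between the counts in 8.33%. Of the 4 miR-30 hairpins that this set could hold (miR-30a, b, d and e), 1 changed its leading arm.

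**Figure D5:**
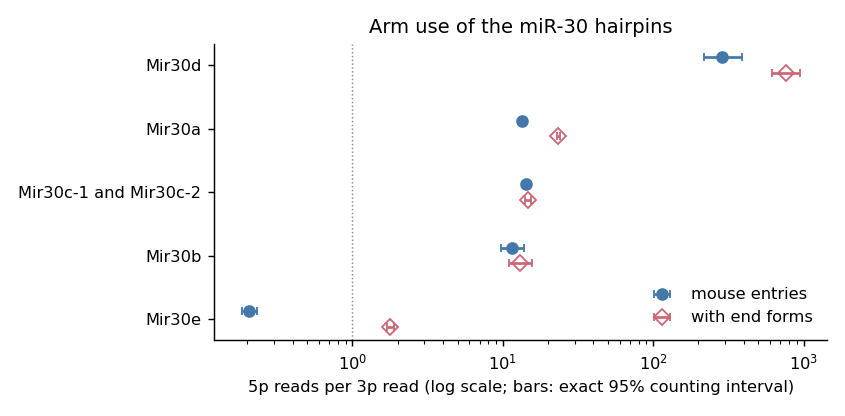
Reads of the 5p arm per read of the 3p arm for each hairpin, on a log axis with exact 95% counting intervals, by mouse entries (circles) and with end forms (diamonds). The dotted line marks equal arms, and Mir30e lies below it by mouse entries and at 1.79 with end forms.

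Genes that lie close together on 1 strand gave unequal numbers of reads, by ratios that depended on the counting. In the pair of Mir30d and Mir30b, miR-30d-5p had 39.9 reads per read of miR-30b-5p (38.0 to 41.8) with end forms and 8.97 (8.51 to 9.45) by mouse entries. On the 3p side the order was the opposite by both counts, with 1.46 reads of miR-30b-3p per read of miR-30d-3p (1.12 to 1.92) with end forms and 2.78 (1.99 to 3.93) by mouse entries. The 3p arms separate the copies of miR-30c: miR-30c-2-3p, from chromosome 1, had 23.97 reads per read of miR-30c-1-3p, from Nfyc (19.0 to 30.7), and 37.0 (27.3 to 51.6) by mouse entries. Beside Mir30c-2, miR-30a-3p had 2.92 reads per read of miR-30c-2-3p (2.77 to 3.09) with end forms and 1.49 (1.40 to 1.59) by mouse entries. Beside Mir30c-1, miR-30e-3p had 31.8 reads per read of miR-30c-1-3p (25.2 to 40.7) with end forms and 41.2 (30.4 to 57.4) by mouse entries. For the hairpins Mir30a and Mir30e, whose mature arms differ by 1 base each, miR-30a-5p had 28.8 reads per read of miR-30e-5p (27.9 to 29.7) with end forms and 87.0 (78.4 to 96.9) by mouse entries. miR-30a-3p had 2.20 reads per read of miR-30e-3p (2.10 to 2.32) with end forms and 1.34 (1.26 to 1.43) by mouse entries. None of these pairs changed its order between the counts. Adapter ligation favours some sequences, so ratios between different sequences are ratios of reads and not of molecules.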

How the data were processed

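The deposited file holds raw counts of reads from 1 cleaned liver small RNA library per entry of a mature miRNA list of all species, per the file headers. Adapters were ligated to total RNA, followed by PCR and size selection, per the labels' protocols. Neither the counting program nor the list release is stated, and mm10 is named by the submitters' processing notes. By its name the column belongs to Cre-miR122 replicate 2, and 0 other library columns were present. The counts summed to 8163802 reads over the 30721 distinct sequences listed, which does not give the full sequencing depth of the library.

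Each distinct sequence was used once. End forms were other-species sequences of which the mouse entry is a part, or which are a part of it (15 nt or longer), and which nest with a single mouse sequence. Shares with end forms use 8023528 reads, the same sum over all mouse arms. Shares have Clopper-Pearson intervals and ratios have binomial intervals, both tested on simulated data. Hairpins and gene positions are from GENCODE M21 and sequences from RefSeq. All miR-30 members were named, beside miRNAs of the same seed and marker miRNAs. The marker miR-885-5p has no mouse entry in the table. Members and lists were chosen with earlier results of these data known. Alternatives changed the total, a minimum of 10 reads and the end forms counted. Computation used SciPy 1.17.1, NumPy 2.4.6 and pandas 2.3.3 under Python 3.11.15, with matplotlib 3.10.9 for plots.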

Additional observations from a re-analysis of the deposited data

Results flagged for a closer look

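Entries of other species' miR-30 that nest with no mouse member were outside the main measurement. Of 59 such sequences, 9 had reads, 42 in all, and 5 of them had more than the 3 reads that a count of 0 allows for a sequence. All 9 differ by 1 substitution from a mouse entry or end form of the same length. The highest had 17 reads, and the 42 reads equal 0.0181% of the 232624 reads of the family.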

How the results depend on the processing

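The share of mouse reads held by the family was 1.14% by mouse entries, 0.929% of the total over all species, 2.90% with end forms in members and total, and 2.71% without miR-148a-3p in the total. Each move is set by the reads put in or taken out. The 5p share of family reads was 95.9% with end forms, 92.3% by mouse entries and 96.6% when end forms with another 5′ start were left out. The mouse entry share of the 5p arms, 31.4%, stayed within its interval with 3′ end forms alone, with forms within 2 nt, with at least 10 reads and with forms of several members added, of which there were 0. A minimum of 10 reads also left the other 2 shares within their intervals. By mouse entries, 8 of 11 member shares of the family were higher and 3 lower than with end forms. All 5 ratios of 5p to 3p were lower by mouse entries, and 1 reversed: the log2 ratio of Mir30e was -2.27 by mouse entries and 0.84 with end forms, since its 24-nt 5p form is an end form. The log2 ratio of Mir30b was 3.53 by mouse entries and 3.70 with end forms. For Mir30c-1 and Mir30c-2 together it was 3.84 and 3.88. In both groups the intervals overlapped, so a fall was not resolved. Depth limits miR-30c-1-3p and miR-30d-3p, with under 100 reads each. Leaving out a replicate was not possible with 1 library. No paired analysis was possible because the groups share no replicate numbers and 1 library was analysed.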
